A study of Mus musculus with 33 samples.

Results

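The genes described here are 35 subunits of the proteasome, read from liver RNA on Affymetrix arrays. They were chosen by name, and each was represented by the probe set that carries its symbol alone and has the highest mean over all columns of the table. All 35 were measured, among 18193 genes in all. By role they are 7 alpha-ring subunits (Psma1 to Psma7), 4 beta-ring subunits without an active site (Psmb1 to Psmb4), 3 constitutive active-site subunits (Psmb5, Psmb6, Psmb7), 3 immunoproteasome active-site subunits (Psmb8, Psmb9, Psmb10), 6 ATPases of the base (Psmc1 to Psmc6), 3 other base subunits (Psmd1, Psmd2, Psmd4), 8 lid subunits (Psmd3, Psmd6, Psmd7, Psmd8, Psmd11, Psmd12, Psmd13, Psmd14) and Psmd5, a chaperone of base assembly.

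The proteasome is the protease complex that degrades ubiquitin-tagged proteins. Its barrel-shaped core holds the protease sites on the inner face of the beta rings, the alpha rings gate the entrance, and a regulatory cap with a base and a lid binds, unfolds and de-ubiquitinates substrates. In cells exposed to interferon gamma, and constitutively in many leukocytes, Psmb9, Psmb10 and Psmb8 replace Psmb6, Psmb7 and Psmb5 in newly assembled cores. The resulting immunoproteasome cuts peptides that suit presentation by MHC class I molecules. Hepatocytes mainly hold the constitutive form.

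The RNA came from mice of 12 months on a mixed background of FVB/NT, 129S1/Svlmj and C57BL/6NT. The groups were wild-type livers (wt, n = 7), livers of E2f3a knock-out mice (3aKO, n = 5), hepatocellular carcinomas of E2F1 knock-in mice (1KI, n = 5) and hepatocellular carcinomas of E2F3b knock-in mice (3bKI, n = 4). The wt and 3aKO livers were normal and the tumours arose spontaneously. E2F proteins are transcription factors of the cell cycle, and the gene E2f3 encodes both E2f3a and E2f3b. The labels do not say which locus carries the knock-ins or whether animals shared a litter. Because every knock-in sample is a tumour and every other sample is normal liver, genotype and tumour state cannot be told apart.

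The authors deposited log2 expression values from 2 separate normalizations. Normalization 1 holds wt, 3aKO and 1KI; normalization 2 holds the same wt and 3aKO arrays with 3bKI. Every comparison stayed within a normalization, and 1KI and 3bKI were not compared. The comparisons with wt share the wt arrays and those with 3aKO share the 3aKO arrays. The hepatocyte marker Alb was at 14.94 (SD 0.03, n = 7) in wt and 14.88 (SD 0.04, n = 5) in 1KI, both in normalization 1. In normalization 2 it was at 14.87 (SD 0.05, n = 4) in 3bKI, a value not to be set against those of normalization 1. The mean over 8 hepatocyte markers was 12.90 in wt, 13.00 in 3aKO and 12.90 in 1KI, and in normalization 2 it was 12.57 in 3bKI against 12.83 in wt and 12.94 in 3aKO. Replicates 3 and 4 of 1KI stood apart on the first principal component, at 61.0 and 69.8 against -17.0 to 5.08 for the other arrays of normalization 1. By Xist and Y-linked genes, the wt arrays came from 3 female and 4 male livers, the 3aKO arrays from 3 and 2, and the 1KI arrays from 2 and 3. The 3bKI arrays came from 3 females and 1 animal whose sex was unclear. The beta-actin control ratio, the log2 level of the 3′ over the 5′ control probe set, is higher in less intact RNA. In normalization 2 it was 0.70 to 0.87 in 3bKI, 1.06 to 1.35 in 3aKO and 0.65 to 1.37 in wt, so 3bKI and 3aKO did not overlap. The number of arrays limits the precision of every value, and p-values set a difference or a correlation against the variation between these arrays.

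Promoters are shown for the 3 immunoproteasome subunits, which varied together between livers, and for 2 of the subunits they replace, which were steady. They are RefSeq windows on GRCm38.p6 running from 250 bases before to 50 bases after the gene start, printed 5′ to 3′ on the strand of the gene. Psmb8 lies at chr17:34197945-34198244 (plus strand) and Psmb9 at chr17:34187281-34187580 (minus strand). Psmb10 lies at chr8:105938343-105938642 (minus strand), Psmb5 at chr14:54617946-54618245 (minus strand) and Psmb6 at chr11:70525107-70525406 (plus strand). Capitals mark every match, on either strand, to the antioxidant response element core TGACNNNGC, the interferon-stimulated response element core GAAANNGAAA, the interferon gamma activated site TTCNNNGAA, the E2F site core TTTNGCG or the NF-Y site CCAAT.
Psmb8: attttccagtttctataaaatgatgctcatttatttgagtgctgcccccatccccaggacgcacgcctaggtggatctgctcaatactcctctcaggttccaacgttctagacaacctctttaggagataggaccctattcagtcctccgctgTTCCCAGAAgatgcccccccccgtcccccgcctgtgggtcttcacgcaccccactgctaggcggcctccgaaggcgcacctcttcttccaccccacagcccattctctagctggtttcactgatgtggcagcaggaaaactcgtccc
Psmb9: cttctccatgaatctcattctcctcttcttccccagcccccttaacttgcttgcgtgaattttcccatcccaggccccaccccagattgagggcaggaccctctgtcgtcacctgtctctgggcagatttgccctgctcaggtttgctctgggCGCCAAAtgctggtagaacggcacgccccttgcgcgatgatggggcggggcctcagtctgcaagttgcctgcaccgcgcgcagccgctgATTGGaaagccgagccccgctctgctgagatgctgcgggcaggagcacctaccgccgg
Psmb10: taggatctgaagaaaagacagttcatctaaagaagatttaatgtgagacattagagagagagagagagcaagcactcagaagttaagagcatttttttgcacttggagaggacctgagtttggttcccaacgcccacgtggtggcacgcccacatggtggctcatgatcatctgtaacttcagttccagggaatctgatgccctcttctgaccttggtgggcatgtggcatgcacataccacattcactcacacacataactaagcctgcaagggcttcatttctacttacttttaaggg
Psmb5: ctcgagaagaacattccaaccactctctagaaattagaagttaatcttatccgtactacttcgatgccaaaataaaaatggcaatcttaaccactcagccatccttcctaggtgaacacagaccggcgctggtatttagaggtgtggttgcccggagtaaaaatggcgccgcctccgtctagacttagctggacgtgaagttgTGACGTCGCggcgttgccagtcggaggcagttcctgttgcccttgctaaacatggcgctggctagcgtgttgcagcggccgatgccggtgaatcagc
Psmb6: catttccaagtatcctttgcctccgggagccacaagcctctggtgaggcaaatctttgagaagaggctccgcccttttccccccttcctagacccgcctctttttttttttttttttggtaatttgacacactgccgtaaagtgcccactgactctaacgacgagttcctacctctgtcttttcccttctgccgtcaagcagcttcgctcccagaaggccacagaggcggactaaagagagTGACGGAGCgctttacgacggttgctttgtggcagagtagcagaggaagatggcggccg
In Psmb8 the capitals are a match to the interferon gamma activated site that starts at base -97 from the gene start. In Psmb9 they are an E2F core on the minus strand at -97 and an NF-Y site on the minus strand at -8. The Psmb10 window held no match to the 5 motifs. Psmb5 and Psmb6 each held an antioxidant response element core, at -47 and -9. Windows were at hand for 29 of the 35 members. The antioxidant response element core was in 4 of these 29 (13.8%) against 14.0% of 27025 genes, the interferon-stimulated core in 2 (6.90%) against 3.99%, the interferon gamma activated site in 2 (6.90%) against 9.55%, the E2F core in 2 (6.90%) against 4.81% and the NF-Y site in 11 (37.9%) against 41.1%. A match is a run of letters and not a measured binding site.

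The immunoproteasome subunits differed widely between livers of the same group. Psmb9 spanned 8.47 to 10.59 in wt (median 9.23, n = 7), a range of 4.34-fold. In 3aKO its values were 8.66, 9.01, 9.66, 8.42 and 10.35 in replicates 1 to 5, and in 1KI 9.24, 9.08, 9.96, 10.48 and 9.36. The 3bKI tumours gave 9.27, 9.80, 11.16 and 9.15 in normalization 2. Within each group 1 or more arrays lay well above the rest, and all groups overlapped.

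Psmb8 showed the same spread, from 9.44 to 11.03 in wt (median 10.16, n = 7). The 3aKO arrays held 9.42, 9.63, 10.38, 9.54 and 10.85, and the 1KI arrays 9.96, 9.99, 10.66, 11.46 and 10.0016. The 3bKI arrays held 9.57, 10.57, 11.28 and 10.12. The high arrays were those high in Psmb9: replicates 3, 6 and 7 of wt, 3 and 5 of 3aKO, 3 and 4 of 1KI, and 3 of 3bKI. Psmb10 ran from 9.70 to 10.87 in wt (median 10.17, n = 7), a narrower range of 2.25-fold. Its values were 9.79, 9.61, 10.25, 9.87 and 10.60 in 3aKO, 10.02, 9.46, 10.03, 10.67 and 10.15 in 1KI, and 9.64, 9.98, 11.01 and 10.16 in 3bKI. Again the groups overlapped.

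**Figure D1:**
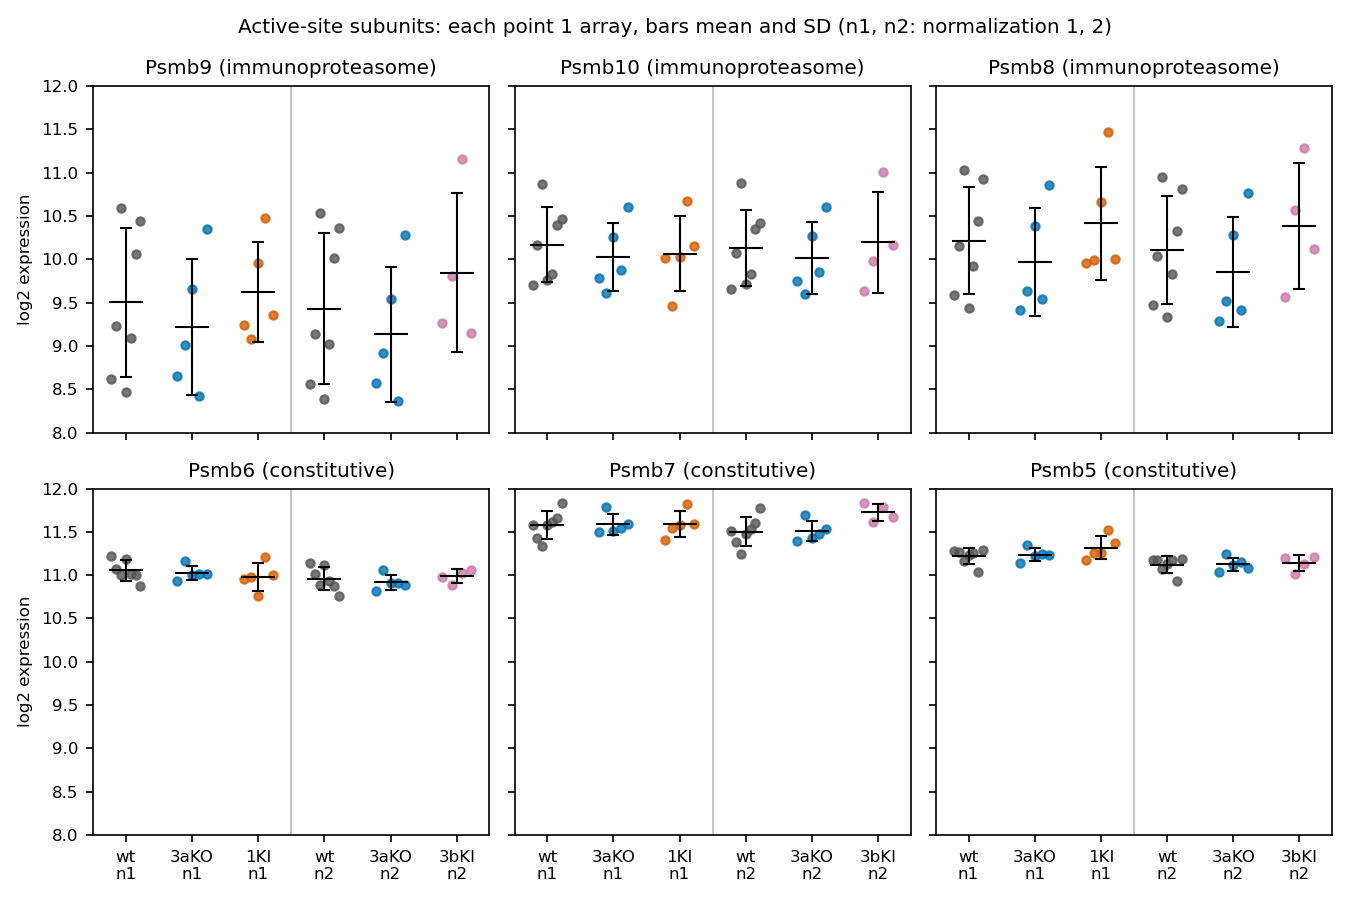
Log2 expression (y axis) of the active-site subunits in every array, by group and normalization (x axis); points are arrays and bars are the mean and SD. Psmb9, Psmb10 and Psmb8 (upper row) scatter widely in every group, with Psmb9 in wt from 8.47 to 10.59, while Psmb6, Psmb7 and Psmb5 (lower row) stay within narrow ranges.

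The constitutive subunits that they replace were steady. Psmb6, the partner of Psmb9, lay between 10.88 and 11.22 in wt (median 11.01, n = 7), at 10.93, 11.16, 10.9958, 11.01 and 11.01 in 3aKO and at 10.96, 10.98, 10.76, 11.21 and 10.9965 in 1KI. In 3bKI it was at 10.98, 10.89, 11.03 and 11.06. Psmb7, the partner of Psmb10, lay between 11.34 and 11.84 in wt (median 11.58, n = 7), at 11.49, 11.78, 11.51, 11.55 and 11.59 in 3aKO and at 11.40, 11.54, 11.58, 11.82 and 11.60 in 1KI. The 3bKI values of Psmb7, 11.83, 11.62, 11.78 and 11.67, were high against the wt and 3aKO arrays of normalization 2 (11.25 to 11.77), with replicates 1 and 3 above all of them. Psmb5, the partner of Psmb8, lay between 11.04 and 11.29 in wt (median 11.26, n = 7), at 11.14, 11.35, 11.22, 11.25 and 11.23 in 3aKO and at 11.18, 11.26, 11.25, 11.52 and 11.37 in 1KI. In 3bKI it was at 11.20, 11.02, 11.13 and 11.21. Each of the 3 overlapped between every pair of groups.

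The SD between arrays of a group sets the 3 apart from the other 32. In wt it was 0.62 for Psmb8, 0.86 for Psmb9 and 0.43 for Psmb10, at percentiles 97.1, 98.6 and 93.8 of all genes, against 0.05 to 0.32 for the constitutive subunits (median 0.14) and a median of 0.18 over all genes. In 3aKO the 3 had SDs of 0.40 to 0.78 and the constitutive subunits 0.04 to 0.20. In 3bKI the 3 had SDs of 0.58 to 0.92 and the constitutive subunits 0.03 to 0.19. The gap was smallest in 1KI, at 0.43 to 0.66 against 0.07 to 0.42, where the upper end belongs to Psmd8, a lid subunit with 12.02 in replicate 4 and 11.40 in replicate 3. By SD in 1KI the 3 stood at percentiles 87.0 to 93.9 of all genes, and Psmd8 at 86.5. These SDs are a description of the same arrays, with no test.

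**Figure D2:**
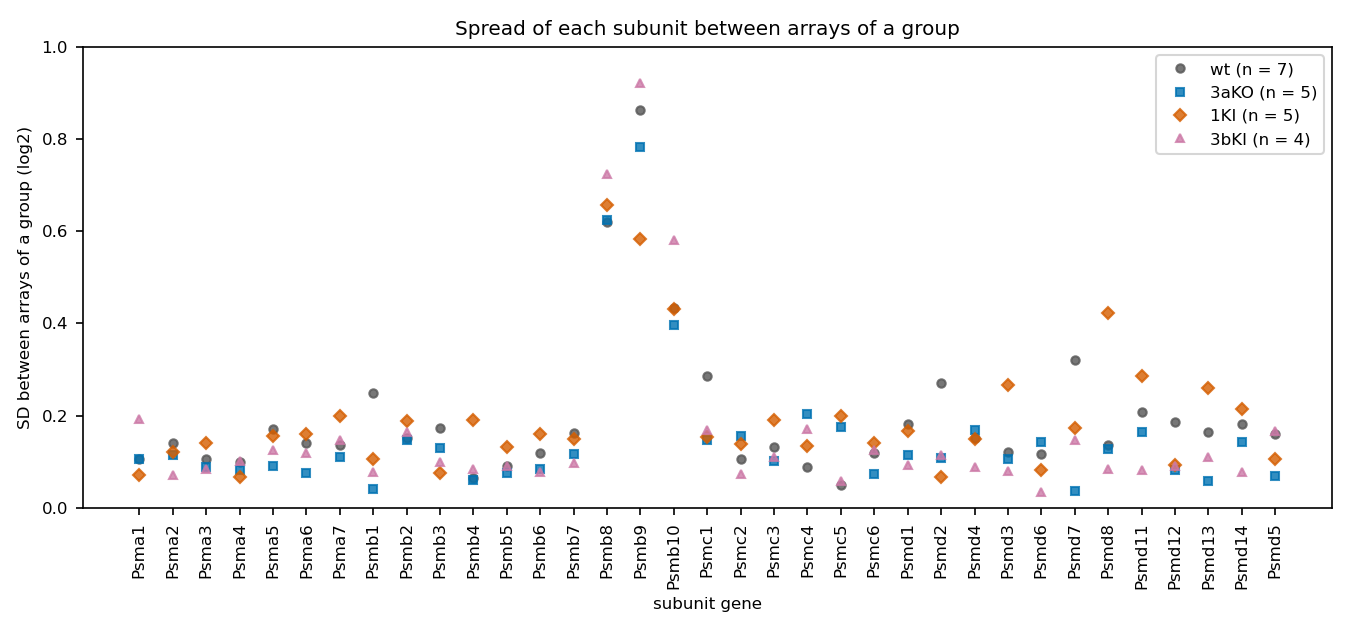
SD between the arrays of a group (y axis, log2) for each of the 35 subunits (x axis); symbols and colours mark wt, 3aKO, 1KI (normalization 1) and 3bKI (normalization 2). Psmb8, Psmb9 and Psmb10 stand above the other subunits in every group, with Psmb9 at 0.86 in wt and 0.92 in 3bKI.

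The 3 moved together from liver to liver. Over the 17 arrays of normalization 1, with each value taken as its deviation from its group mean, Psmb8 and Psmb9 correlated with r = 0.97 and rho = 0.93 (permutation test within groups, 100000 permutations, two-sided, adjusted p = 0.00015 for r and 0.0003 for rho, Benjamini-Hochberg over 59 relations). Psmb8 and Psmb10 gave r = 0.90 and rho = 0.85 (adjusted p = 0.00015 and 0.00081), and Psmb9 and Psmb10 r = 0.89 and rho = 0.85 (adjusted p = 0.00015 and 0.00081). Without the 2 arrays farthest from the median of the second gene r was 0.95, 0.85 and 0.85. Without replicates 3 and 4 of 1KI r was 0.98, 0.89 and 0.89. In the 8 females r was 0.97, 0.94 and 0.96, and in the 9 males 0.97, 0.94 and 0.85. In the 3bKI tumours, which this test did not use, replicate 3 was highest for all 3 genes, but the order of the other tumours differed by gene.

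No correlation past the threshold was found with the subunits that they replace. Psmb9 and Psmb6 gave r = -0.29 and rho = -0.31 (permutation test, adjusted p = 0.339 and 0.321), Psmb10 and Psmb7 r = 0.02 and rho = 0.01 (adjusted p = 0.94 and 0.97), and Psmb8 and Psmb5 r = 0.19 and rho = 0.16 (adjusted p = 0.568 and 0.59). The first of these was not stable: r was -0.56 without the 2 arrays farthest in Psmb6 and -0.58 without replicates 3 and 4 of 1KI. That of Psmb10 and Psmb7 was 0.67 in males and -0.04 in females. Among the constitutive active-site subunits, Psmb5 correlated with Psmb7 at r = 0.58 and rho = 0.59 (adjusted p = 0.0514 and 0.0374) and with Psmb6 at r = 0.57 and rho = 0.61 (adjusted p = 0.0718 and 0.0346), and Psmb6 with Psmb7 at r = 0.22 and rho = 0.20 (adjusted p = 0.511 and 0.524). Without replicates 3 and 4 of 1KI the r of Psmb5 was 0.43 with Psmb7 and 0.39 with Psmb6, and in females that with Psmb7 was -0.07. That of Psmb6 with Psmb7 was 0.50 without the 2 arrays farthest in Psmb7.

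Tap1, Nlrc5, Irf1 and Psme1, 4 picked genes of antigen presentation and interferon response, moved with the immunoproteasome subunits. The other measured genes of these pathways were not correlated with the subunits, so the 4 do not stand for the pathways as a whole. Tap1, part of the transporter that carries peptides into the endoplasmic reticulum, correlated with Psmb8 at r = 0.92 and rho = 0.76, with Psmb9 at r = 0.91 and rho = 0.74 and with Psmb10 at r = 0.83 and rho = 0.74 (permutation test, adjusted p between 0.00015 and 0.0059). Nlrc5, the transactivator of MHC class I genes, gave r of 0.85, 0.80 and 0.82 in the same order, and Irf1, a transcription factor induced by interferon gamma, 0.75, 0.80 and 0.87. Psme1, a subunit of the activator cap that interferon gamma induces, gave 0.87, 0.84 and 0.79. The adjusted p of these 9 relations lay between 0.00015 and 0.00541 for r and between 0.00047 and 0.0208 for rho.

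Leukocyte markers moved with the 3 genes as well. The mean of Ptprc, Coro1a, Laptm5, Cd52, Cd53 and Rac2, which mark leukocytes in general, correlated at r = 0.91 and rho = 0.91 with Psmb8, r = 0.92 and rho = 0.90 with Psmb9 and r = 0.91 and rho = 0.92 with Psmb10 (permutation test, adjusted p = 0.00015 for r and 0.0003 for rho). It remained at 0.88 to 0.90 without the 2 arrays farthest in the marker mean. The mean of 7 T and NK cell markers gave r = 0.85, 0.91 and 0.86 (adjusted p between 0.00015 and 0.00047; rho 0.72, 0.86 and 0.79, adjusted p between 0.00268 and 0.0059), and that of 5 dendritic cell markers 0.76, 0.77 and 0.69. B and plasma cell markers gave r of 0.62, 0.67 and 0.72 (adjusted p = 0.0285, 0.0219 and 0.00779). Endothelium markers gave 0.50, 0.39 and 0.63, past the threshold for Psmb10 alone (adjusted p = 0.0232 for r and 0.0867 for rho; r = 0.40 without the 2 arrays farthest in the marker mean). Cholangiocyte markers gave -0.26, -0.29 and -0.56 (adjusted p = 0.405, 0.328 and 0.059 for r), with rho past the threshold for Psmb10 alone (adjusted p = 0.0381). Hepatocyte markers gave r of -0.53, -0.46 and -0.46, and stellate cell markers 0.53, 0.51 and 0.53 (permutation test, adjusted p from 0.0694 to 0.121). Neutrophil markers gave r of 0.11 to 0.16 and macrophage and Kupffer cell markers 0.28 to 0.43, with adjusted p from 0.137 to 0.702. Without replicates 3 and 4 of 1KI the macrophage values were 0.67 to 0.73. All 6 leukocyte markers were measured and none was listed at 0. Their summed level, on the log2 scale, ran from 9.84 to 10.95 in wt, 9.94 to 11.32 in 3aKO and 10.03 to 10.92 in 1KI, and in normalization 2 from 10.32 to 12.12 in 3bKI against 9.77 to 10.89 in wt and 9.87 to 11.26 in 3aKO. In bulk tissue, more cells of a type and more RNA per cell cannot be told apart, and the part of leukocytes in the spread of Psmb8, Psmb9 and Psmb10 was not tested.

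**Figure D3:**
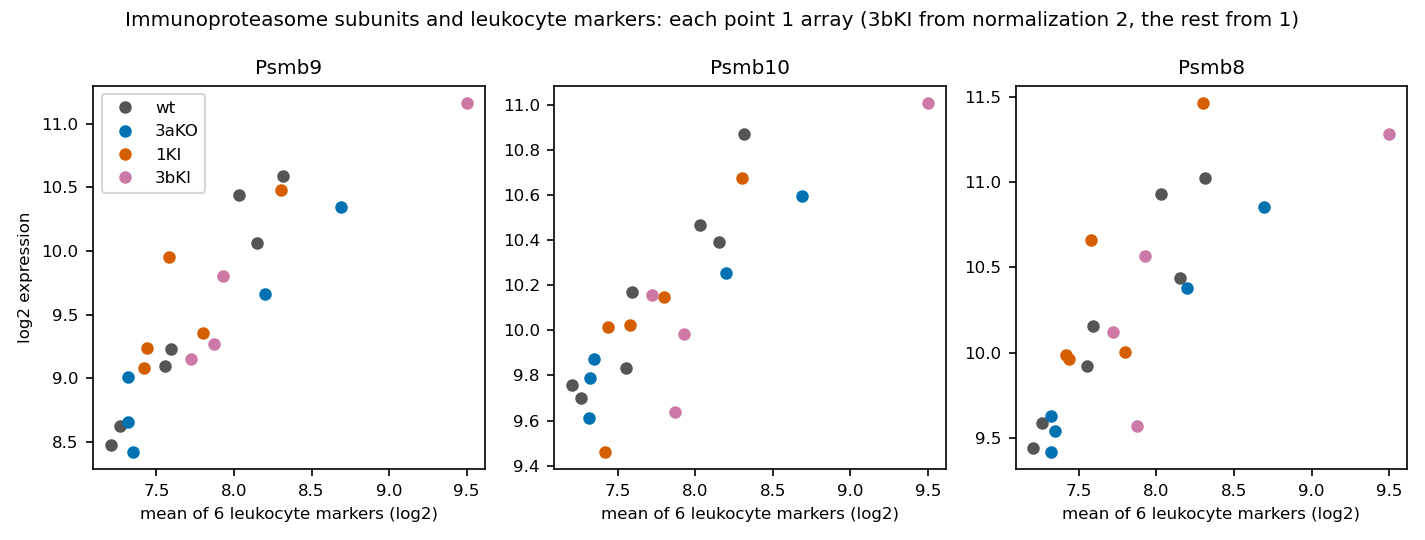
Log2 expression of Psmb9, Psmb10 and Psmb8 (y axes) against the mean log2 level of 6 leukocyte markers (x axis), each point 1 array; 3bKI values are from normalization 2 and the rest from normalization 1. Arrays with a higher marker mean have higher immunoproteasome values, and replicate 3 of 3bKI, at a marker mean of 9.5008, is highest of its group in the marker mean and, with 11.16, in Psmb9.

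Against this spread no difference of the immunoproteasome subunits between groups was detected. In limma's moderated test, adjusted by Benjamini-Hochberg over all 18193 genes, 0 of the 3 were called at an adjusted p under 0.05 in any of the 5 comparisons, where 0% of all genes were called in 3aKO against wt and in 1KI against 3aKO, 0.242% in 1KI against wt, 2.07% in 3bKI against wt and 9.18% in 3bKI against 3aKO. In 3aKO against wt the log2 change was -0.25 ± 0.32 (SE) for Psmb8, -0.28 ± 0.42 for Psmb9 and -0.14 ± 0.22 for Psmb10 (adjusted p = 0.870, 0.892 and 0.892). In 1KI against wt the changes were 0.20 ± 0.33, 0.12 ± 0.40 and -0.10 ± 0.23 (adjusted p = 0.750, 0.881 and 0.816). Without replicates 3 and 4 of 1KI they were -0.23 ± 0.32, -0.28 ± 0.44 and -0.29 ± 0.25. In 1KI against 3aKO they were 0.45 ± 0.35, 0.40 ± 0.38 and 0.04 ± 0.23 (adjusted p = 0.576, 0.644 and 0.954), and without those 2 arrays 0.02 ± 0.31, 0.01 ± 0.39 and -0.15 ± 0.24. In 3bKI against wt they were 0.28 ± 0.36, 0.42 ± 0.48 and 0.07 ± 0.27 (adjusted p = 0.700, 0.660 and 0.912), and in 3bKI against 3aKO 0.53 ± 0.38, 0.71 ± 0.47 and 0.18 ± 0.28 (adjusted p = 0.372, 0.339 and 0.688). Replicate 3 of 3bKI, the array with the highest leukocyte marker mean, carried much of these values: without it they were -0.02 ± 0.35, -0.02 ± 0.45 and -0.20 ± 0.24 against wt and 0.23 ± 0.36, 0.27 ± 0.40 and -0.09 ± 0.23 against 3aKO. Leaving out any 1 array gave -0.06 to 0.34 for Psmb8, -0.09 to 0.30 for Psmb9 and -0.26 to 0.05 for Psmb10 in 1KI against wt. The intervals are wide: the 95% interval of Psmb9 in 3bKI against 3aKO ran from 0.787-fold to 3.41-fold, and that of Psmb8 in 1KI against wt from 0.699-fold to 1.89-fold. All 6 leukocyte markers were higher in 3bKI than in wt by 0.41 to 0.88 in the group means, though none was called. Of the 3bKI arrays, only replicate 3 had a marker mean above the wt range, at 9.5008. Replicates 1, 2 and 4 were at 7.87, 7.93 and 7.72, against 7.13 to 8.25 (mean 7.67) in wt in normalization 2. With sex as a covariate, a fit that drops the 3bKI array of unclear sex, the changes of Psmb8 and Psmb9 in 3bKI against wt were -0.11 ± 0.46 and -0.03 ± 0.61.

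The constitutive active-site subunits moved little, with 0 of 3 called in every comparison, where 0% to 9.18% of all genes were called. Psmb5, the chymotrypsin-like site, was at 0.02 ± 0.06 in 3aKO against wt, 0.10 ± 0.07 in 1KI against wt and 0.02 ± 0.08 in 3bKI against wt. Psmb6, the caspase-like site, was at -0.03 ± 0.07, -0.07 ± 0.09 and 0.03 ± 0.09 in the same comparisons. Psmb7, the trypsin-like site, was at 0.01 ± 0.09, 0.01 ± 0.10 and 0.22 ± 0.10. Against 3aKO, 1KI gave 0.08 ± 0.08, -0.04 ± 0.09 and 0.00 ± 0.09 for Psmb5, Psmb6 and Psmb7, and 3bKI gave 0.02 ± 0.08, 0.07 ± 0.08 and 0.22 ± 0.09.

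The constitutive subunits as a whole stayed close to 0 between the normal livers. In 3aKO against wt, 0 of the 32 constitutive subunits were called, and 0% of all genes were (1357 of 18193 at an unadjusted p under 0.05). The changes ran from -0.19 to 0.16 with a median of 0.02, against 0.00 over all genes. Psma4, an alpha-ring subunit, had the lowest p (-0.19 ± 0.07, 95% interval 0.791-fold to 0.967-fold, adjusted p = 0.641). Its values were 11.32, 11.49, 11.30, 11.36 and 11.45 in 3aKO and 11.46 to 11.73 in wt, so the groups overlapped. The lowest p in the other roles belonged to Psmd4, a ubiquitin receptor (0.14 ± 0.09), Psmd5 (0.11 ± 0.08), Psmb2 (0.10 ± 0.09), the lid subunit Psmd3 (0.08 ± 0.08) and the ATPase Psmc5 (-0.06 ± 0.08), with adjusted p of 0.750 to 0.864. The same arrays in normalization 2 gave -0.19 ± 0.07 for Psma4. In neither normalization did any of the 35 members separate the groups without overlap, where 0.214% of all genes did so upward and 0.286% downward in normalization 1.

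In 1KI tumours against wt, 0 of the 32 were called, where 0.242% of all genes were. Of the 32, 22 had a change above 0 and 10 below, where 43.3% of all genes were above 0. The changes ran from -0.16 to 0.36 with a median of 0.04, against -0.03 over all genes. All were read from the same arrays, so this count of directions is a description with no test. The lid subunit Psmd8 had the lowest p, at 0.36 ± 0.16 (adjusted p = 0.237), with 10.98, 11.15, 11.40, 12.02 and 11.05 in 1KI and 10.75 to 11.12 in wt. Without replicates 3 and 4 its change was 0.10 ± 0.09. The base ATPase Psmc3 was at 0.20 ± 0.10 (adjusted p = 0.270) and Psmd2, a scaffold subunit of the base, at 0.23 ± 0.12 (adjusted p = 0.317). The beta-ring subunit Psmb4 was at 0.14 ± 0.08, the alpha-ring subunit Psma5 at 0.12 ± 0.10 and Psmd5 at 0.11 ± 0.09. Values without overlap occurred in 0 of 35 members, and in 1.12% of all genes upward and 0.863% downward; 0.209% of all genes were called higher and 0.033% lower. In 1KI against 3aKO, 0 of 32 were called and 0% of all genes were (2550 at an unadjusted p under 0.05). The changes ran from -0.18 for Psmc1 to 0.37 for Psmd8, with a median of 0.00, and that of Psma4 was 0.16 ± 0.07 (adjusted p = 0.338). Psmd4 was at -0.12 ± 0.10, Psmb4 at 0.11 ± 0.09 and Psmd5 at 0.00 ± 0.07. Again 0 of 35 members separated the groups, where 1.45% of all genes did so upward and 1.96% downward.

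In 3bKI tumours against wt, 0 of the 32 were called, where 2.07% of all genes were, and 4 had an unadjusted p under 0.05. Psmc1, a base ATPase, was at -0.50 ± 0.15 (adjusted p = 0.0938) and Psmd2 at -0.31 ± 0.14 (adjusted p = 0.230). Psmb2, a beta-ring subunit without an active site, was at 0.32 ± 0.11 (adjusted p = 0.135) and Psmb7 at 0.22 ± 0.10 (adjusted p = 0.216). The lid subunit Psmd8 was at 0.18 ± 0.08 (adjusted p = 0.249), the alpha-ring subunit Psma2 at -0.07 ± 0.09 and Psmd5 at -0.09 ± 0.11. Of all genes 1.09% were called higher and 0.978% lower, and 1.9% separated the groups upward and 2.38% downward, against 0 of the 35 members. The median of the 32 was 0.01, as it was over all genes. By role the medians were 0.01 in the alpha ring, -0.01 in the beta ring without active sites, 0.03 in the constitutive active sites, -0.02 in the ATPases and 0.01 in the lid.

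In 3bKI against 3aKO, Psmc1 and Psmd2 fell and no other subunit was called. That is 2 of 35 members, all lower, where 9.18% of all genes were called, 2.92% higher and 6.27% lower, so the share was near the background. Psmc1, an ATPase of the ring that unfolds substrates, was at 9.37, 9.07, 9.43 and 9.41 in 3bKI and at 9.65, 10.06, 9.87, 9.82 and 9.82 in 3aKO. The change was -0.52 ± 0.11 (adjusted p = 0.0224), a fold of 0.696 (95% interval 0.591 to 0.820). Psmd2, which binds ubiquitin receptors and helps hold the base together, was at 10.79, 10.64, 10.88 and 10.65 in 3bKI and at 11.13, 11.35, 11.29, 11.05 and 11.14 in 3aKO. The change was -0.45 ± 0.09 (adjusted p = 0.0209), a fold of 0.731 (95% interval 0.637 to 0.840). Every 3bKI array lay below every 3aKO array for both.

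The lid subunit Psmd7 and the beta-ring subunit Psmb1 also had all 3bKI arrays below all 3aKO arrays, at -0.28 ± 0.08 (adjusted p = 0.0608) and -0.16 ± 0.07 (adjusted p = 0.155). Lower values without overlap occurred in 4 of the 35 members and in 8.95% of all genes, and higher values without overlap in 0 members and in 6.03% of all genes. Psmd7 was at 8.72, 8.48, 8.69 and 8.83 in 3bKI and 8.92 to 9.0031 in 3aKO, and Psmb1 at 10.92, 10.85, 10.99 and 11.02 against 11.06 to 11.19. Psma4 (0.22 ± 0.08), Psmb7 (0.22 ± 0.09) and Psmb2 (0.26 ± 0.11) were on the other side of 0, with adjusted p of 0.107, 0.120 and 0.139. Psmd5 was at -0.18 ± 0.09 (adjusted p = 0.213). The median over the 32 was -0.02, against 0.03 over all genes, but its sign depended on the scaling: it was 0.11 after quantile normalization, with Psma4 and Psmb7 called higher and Psmc1 lower, and -0.07 with each array centred on its median. Weaker probe sets of both genes were not called: a dim probe set of Psmc1 (mean 2.69) gave 0.19 ± 0.12 (adjusted p = 0.347) and a dim probe set of Psmd2 (mean 4.33) gave -0.19 ± 0.09 (adjusted p = 0.209) when every probe set was tested.

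**Figure D4:**
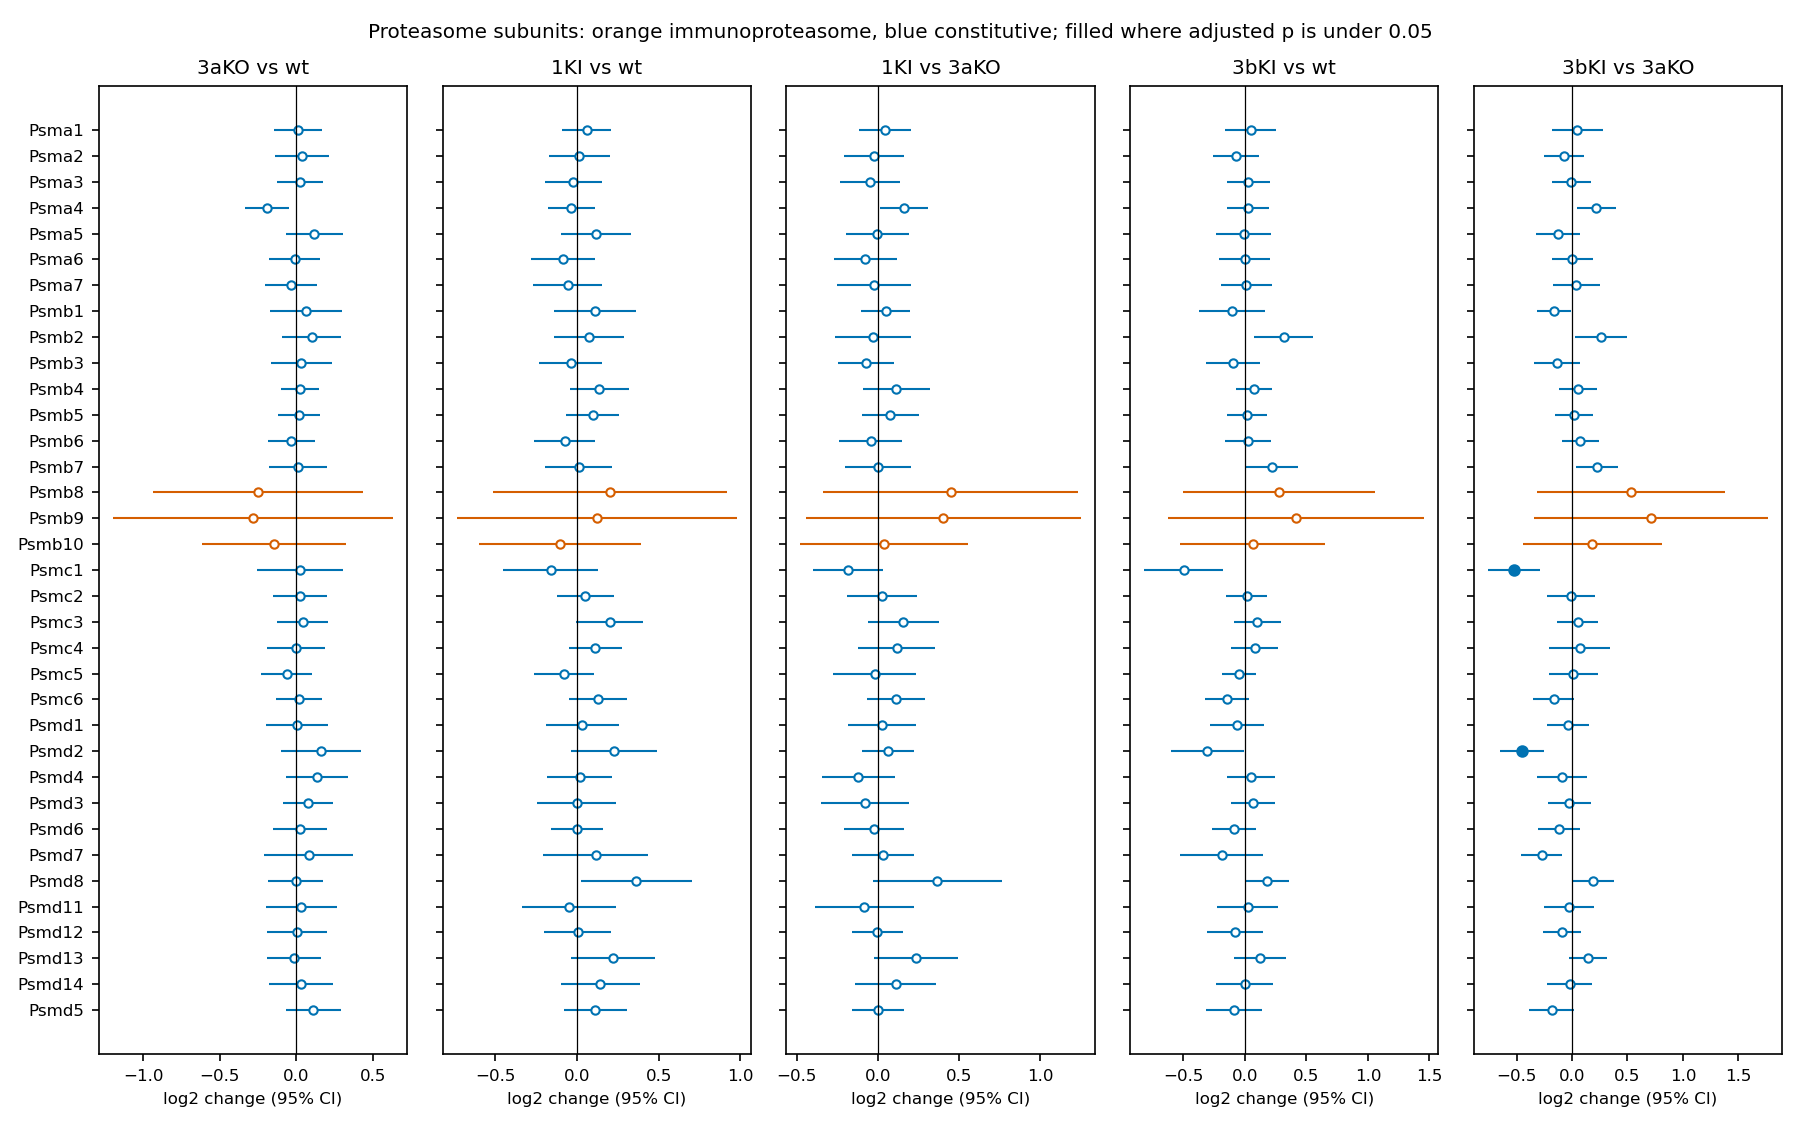
Log2 change (x axis, bars are 95% intervals) of each of the 35 subunits (rows) in the 5 comparisons (panels); orange marks Psmb8, Psmb9 and Psmb10, blue the others, and filled points have an adjusted p under 0.05. Only Psmc1 and Psmd2 in 3bKI against 3aKO are filled, at -0.52 and -0.45, and the orange intervals are the widest in every panel.

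In normalization 2, Psmc1 and Psmd2 were low in the arrays with the lowest beta-actin control ratios. All 3bKI arrays had a lower beta-actin 3′ to 5′ ratio than all 3aKO arrays. Replicates 6 and 7 of wt, with ratios of 0.88 and 0.65 in normalization 2, were closest to the 3bKI arrays (0.70 to 0.87), 1 just above and 1 below their range, and the other 5 wt arrays had ratios of 1.15 to 1.37. These 2 wt livers also had low Psmc1, at 9.43 and 9.41 against 9.82 to 10.15 in the other wt arrays, low Psmd2, at 10.62 and 10.69 against 11.12 to 11.25, and low Psmd7, at 8.49 and 8.37 against 8.94 to 9.16. With the ratio as a covariate the change in 3bKI against 3aKO was -0.27 ± 0.25 for Psmc1 (adjusted p = 0.888) and -0.41 ± 0.23 for Psmd2 (adjusted p = 0.822), and 0 of all genes were called. Because the ratio did not overlap between these 2 groups, ratio and group cannot be told apart in this fit. A Gapdh control ratio, formed in the same way, overlapped in normalization 2, at 0.14 to 0.18 in 3bKI and 0.15 to 0.26 in 3aKO. It was 0.30 and 0.205 in replicates 6 and 7 of wt, against 0.205 to 0.325 over wt. In normalization 1, replicates 3 and 4 of 1KI had beta-actin ratios of 0.91 and 0.95. Their Psmd2 was at 11.29 and 11.45 (wt 10.68 to 11.31) and their Psmc1 at 9.81 and 9.51 (wt 9.49 to 10.22). The part of RNA quality in the fall of both genes in 3bKI against 3aKO was not tested. With sex as a covariate, again without the 3bKI array of unclear sex, the change was -0.38 ± 0.11 (adjusted p = 0.122) for Psmc1 and -0.41 ± 0.12 (adjusted p = 0.122) for Psmd2. Of the constitutive active-site subunits, Psmb7 ran against the beta-actin ratio over the 17 arrays of normalization 1 (r = -0.78, rho = -0.74, permutation test, adjusted p = 0.00223 and 0.0059). Without the 2 arrays farthest in the beta-actin ratio r was -0.69. The 3 immunoproteasome subunits had r of -0.31 to -0.14 with it (adjusted p between 0.356 and 0.652), with -0.88 to -0.73 in the 9 males and 0.24 to 0.40 in the 8 females. For Psmc1 and Psmd2 r was 0.68 and 0.61 (permutation test, adjusted p = 0.0315 and 0.0718) and rho 0.49 and 0.40 (adjusted p = 0.120 and 0.197). Without replicates 6 and 7 of wt r was 0.39 and 0.14, so much of these relations over all 17 arrays rests on those 2. In the 8 females, with replicate 6 of wt, r was 0.88 and 0.75. In the 9 males, with replicate 7 of wt, it was 0.79 and 0.70. Without replicates 3 and 4 of 1KI it was 0.72 and 0.71.

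**Figure D5:**
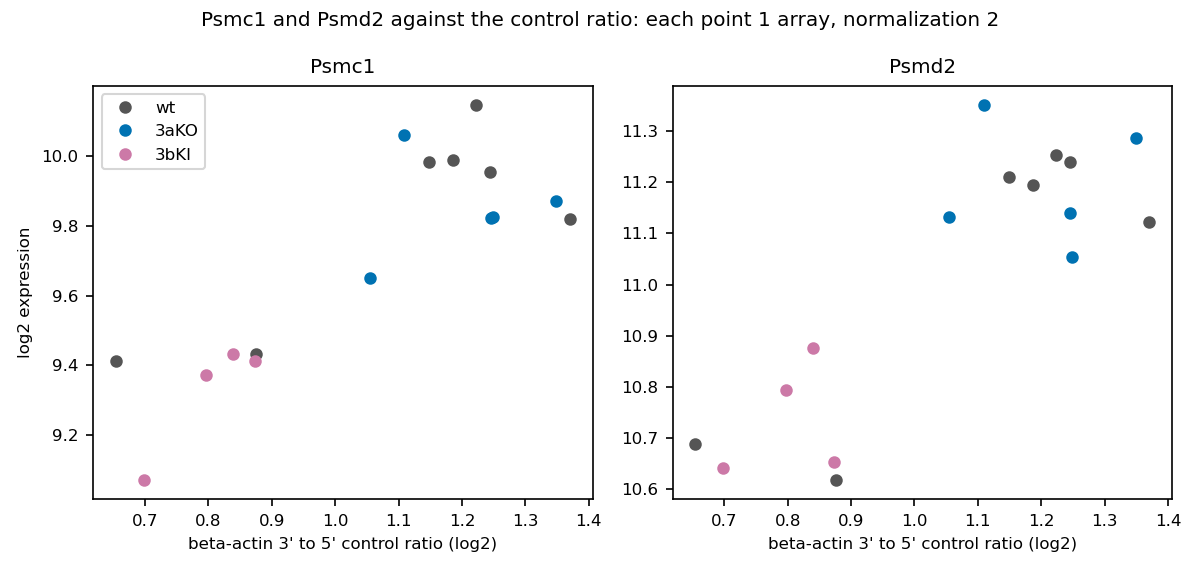
Log2 expression of Psmc1 and Psmd2 (y axes) against the log2 beta-actin 3′ to 5′ control ratio (x axis) in the 16 arrays of normalization 2, coloured by group. The 4 tumours of 3bKI and replicates 6 and 7 of wt lie together at ratios up to 0.88 with low values of both genes, and the 3aKO arrays and the other wt arrays lie at ratios of 1.06 and above.

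Some genes that work with the proteasome were called. Of all genes, 0.242% were called in 1KI against wt, 2.07% in 3bKI against wt and 9.18% in 3bKI against 3aKO. Nfe2l2, which encodes a transcription factor of the antioxidant response, rose in 1KI against wt by 0.75 ± 0.12 (adjusted p = 0.0334), and every 1KI array lay above every wt array. It was the 1 of 6 measured genes in the list on control of proteasome genes that was called in that comparison, and its change in 3bKI against wt was 0.45 ± 0.12 (adjusted p = 0.0732). Nfe2l1, the main transcription factor of the proteasome recovery response, was at -0.33 ± 0.10 in 3bKI against 3aKO (adjusted p = 0.0587), and Ngly1, the glycanase that processes it, at -0.35 ± 0.10 (adjusted p = 0.0507). In 3bKI against 3aKO, Psme4, which encodes an activator cap, fell by 0.39 ± 0.09 on the log2 scale (adjusted p = 0.0342; 1 of 4 in the list of activators and inhibitor). Psmd9, a chaperone of base assembly, fell by 0.63 ± 0.14 (adjusted p = 0.0315; 1 of 7 assembly chaperones). These 3 lists had 0 other calls in the 5 comparisons.

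Of 8 class I peptide loading genes and 9 interferon signalling genes, 0 were called in any comparison. Of all genes, 0% were called in 3aKO against wt and in 1KI against 3aKO, and 0.242% in 1KI against wt. In 3bKI the shares were 2.07% against wt and 9.18% against 3aKO, so lists this short could hold 0 calls at the background share. Irf7, an interferon-induced transcription factor, came closest, with 1.55 ± 0.30 in 1KI against wt (adjusted p = 0.0571), 1.77 ± 0.36 in 1KI against 3aKO (adjusted p = 0.141), 1.06 ± 0.29 in 3bKI against wt (adjusted p = 0.0767) and 1.29 ± 0.36 in 3bKI against 3aKO (adjusted p = 0.0513). The median change of the class I list was 0.12 in 1KI against wt and 0.17 in 3bKI against wt, and that of the interferon list 0.12 and 0.24. The 5 measured receptors and deubiquitinases, the tissue-restricted subunits Psma8 and Psmb11, and Uba6, the 1 measured gene of the list of ubiquitin genes and E1 enzymes, were not called in any of the 5 comparisons, against the same shares of all genes. Psme2 and some other members of these lists were not used here.

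Cell type markers were called in the comparison in which Psmc1 and Psmd2 fell, and also where no subunit was called. In 3bKI against wt, 2 of 6 stellate cell and 1 of 5 dendritic cell markers were called higher, against 1.09% of all genes. In 1KI against wt, 1 of 6 stellate cell and 1 of 6 endothelium markers were called higher, against 0.209% of all genes. In 3bKI against 3aKO the hepatocyte genes Apob (-1.24 ± 0.12, adjusted p = 0.0040) and Cps1 (-0.43 ± 0.09, adjusted p = 0.0215) fell, 2 of 8 markers, where 9.18% of all genes were called. The collagens Col1a1 (1.15 ± 0.16, adjusted p = 0.0109) and Col3a1 (1.55 ± 0.37, adjusted p = 0.0353) rose, 2 of 6 stellate cell markers, of which Lrat (-0.48 ± 0.53) and Rgs5 (-0.22 ± 0.25) were below 0 and not called. Lyz2 (1.06 ± 0.27, adjusted p = 0.0397) rose among 7 macrophage markers, Itgax and Cd209a among 5 dendritic cell markers, and Cd79a among 5 B and plasma cell markers. The summed hepatocyte level on the log2 scale was 16.59 to 16.79 in 3bKI and 16.83 to 16.90 in 3aKO. The part of these cells in the fall of Psmc1 and Psmd2 was not tested.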

How the data were processed

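Liver RNA was labelled as biotinylated cRNA from 5 ug of total RNA and hybridised to Affymetrix arrays, per the labels' protocols. The log2 values per probe set were summarised and normalized by the authors, per the labels in 2 separate normalizations; the background correction, summarisation method and software are not given in the sources used here, so what they did to weak signals is unknown. The 33 columns hold 21 arrays, since the wt and 3aKO arrays appear in both normalizations.

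Of 45101 probe sets, 34945 carry 1 gene symbol, 932 several and 9160 none, and 64 controls were left out of the tests. The 34945 gave 18193 genes, each read from its brightest probe set on average. The main probe sets of Psma6 (_x_at) and Psmd11 (_s_at) can hybridise to related transcripts. Tests were run with limma 3.58.1 in R 4.3.3 (lmFit and eBayes) on the arrays of the 2 groups compared, with Benjamini-Hochberg adjustment over all 18193 genes and calls at an adjusted p under 0.05; every adjusted p of a log2 change is from this test. The script was tested on simulated data. Correlations used deviations from group means and 100000 permutations within groups, in Python 3.11.15 with SciPy 1.17.1.

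The members and lists were chosen with earlier results of these data known. Named genes were the 6 active-site subunits, the member with the lowest p in each role and every member called. Every called gene of the other lists was named as well, except in the cell marker lists. Called cell markers are named for 3bKI against 3aKO and given as counts in the other comparisons. Uncalled genes of the lists are named only beside a result they bear on. Alternatives were quantile normalization, centring, a filter on the lowest 40% of genes, the mean of a gene's probe sets, every probe set, all 3 groups in 1 fit, trend and robust, array weights, the replicate block, sex and control ratio as covariates, and leaving out arrays. Promoter windows are RefSeq's.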

Additional observations from a re-analysis of the deposited data

Results flagged for a closer look

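In 11 of 140 groups of 4 to 7 arrays (7.86%), the highest or lowest array of a subunit stood apart from the others by the gap test of Dixon, where chance flags about 1 in 20. None of the 11 is a value of Psmb8, Psmb9 or Psmb10.

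Replicate 4 of 1KI, 1 of the 2 arrays apart on the first principal component, was high in Psmb1 at 11.4807 (others 11.2193 to 11.2719), in Psmb2 at 10.2883 (others 9.8035 to 9.9382) and in Psmd1 at 10.7766 (others 10.3611 to 10.4745). Replicate 7 of wt, the array with the lowest beta-actin control ratio, was high in Psmb2 at 10.2017 (others 9.7319 to 9.9134) and low in Psmd5 at 8.7525 (others 9.0571 to 9.2321). Replicate 6 of wt was low in Psmb4 at 11.4482 (others 11.5716 to 11.6563).

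Replicate 2 of 3aKO was high in the lid subunits Psmd8 at 11.1727 (others 10.8613 to 10.9409) and Psmd11 at 12.1706 (others 11.7563 to 11.8438). Replicate 1 of 3aKO was low in Psmb2 at 9.7317 (others 10.0436 to 10.0735). In 3bKI, replicate 2 was low in Psmc1 at 9.0714 (others 9.3716 to 9.4331) and replicate 4 was high in Psmc5 at 10.4744 (others 10.3487 to 10.3641).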

How the results depend on the processing

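Of 3990 values of a gene in a comparison under an alternative, 3890 kept their direction and side of the threshold or moved by less than the replicate spread, 80 moved further, 9 passed the threshold and 11 lost it; 457 changed sign with neither value called, and no called value did. In 3bKI against 3aKO, where 2 constitutive subunits were called, the count was 1 with the mean of a gene's probe sets (Psmc1 -0.17 ± 0.07, adjusted p = 0.172), and 0 with sex as a covariate, 0 with the control ratio as a covariate and 0 in females only, a setting chosen after seeing the data. Leaving out 1 array gave 1 to 2, with 1 without replicate 4 of 3aKO (Psmc1, adjusted p = 0.0518). Quantile normalization called Psma4 (0.35, adjusted p = 0.0343) and Psmb7 (0.36, adjusted p = 0.0410) higher and lost Psmd2 (adjusted p = 0.0517); centring and the filter on weak genes each added Psmd7. The number of all genes called there was 1671, and 1420 with the mean of probe sets, 145 with sex, 0 with the control ratio, 31 in females and 490 without replicate 4 of 3aKO. In 3bKI against wt, where 0 were called, 1 constitutive subunit was called with all 3 groups in the fit (Psmc1, adjusted p = 0.0438), and leaving out 1 array gave 0 to 2, with Psmb2 and Psmc1 called without replicate 7 of wt (adjusted p = 0.0357 and 0.0412). All genes called there were 377, and 996 and 848 in those settings. The causes were not tested.

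The labels give the replicate numbers no meaning as pairs, and in no comparison did every same-numbered pair correlate above 0.1. The lowest was -0.47 in 3aKO against wt; in 3bKI against 3aKO all 4 were positive, from 0.06 to 0.28 (median 0.12, against -0.03 for other pairs), with 2 of 4 arrays closest to their own number. With the replicate number as a block, the constitutive count was 0 in 3bKI against 3aKO and 1 in 3bKI against wt (Psmc1), and the immunoproteasome count in 3bKI against wt was 1 (Psmb9, 0.69 ± 0.085, adjusted p = 0.0287); all genes called were 50 and 694. The signal over background of each array is not in the values used here, so what weak signal limits was not tested.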
